A study of Danio rerio with 8 samples.

Results

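The Hox cluster genes were followed in whole *elipsa* larvae as every gene whose deposited symbol names a Hox gene of cluster a, b, c or d, with the values joined by gene identifier. The rule found 49 of the 20409 genes in the table, and the annotation of RefSeq (assembly GRCz12tu) also lists 49 protein-coding Hox genes, all matched by identifier and symbol. The members belong to 7 clusters (*hoxaa*, *hoxab*, *hoxba*, *hoxbb*, *hoxca*, *hoxcb* and *hoxda*) and to paralog groups 1 to 13. All 49 had passed the authors' filter of a mean above 1 CPM (reads scaled to a common library size) over all samples, so no member was left out for low values.

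RNA was sequenced from 8 tubes of circa 30 whole, untreated larvae each at 4 days post-fertilization (dpf). The 4 mutant tubes held larvae homozygous for *traf3ip1* tp49d, known as *elipsa*, picked by their downward curled tail, and the 4 control tubes held a mixture of wild-type and heterozygous siblings. All larvae came from crosses of heterozygous parents of the same strain, in 4 separate breedings, and every such clutch supplied a control tube and a mutant tube, handled as a set. The zygotic mutants receive the product of their heterozygous mothers, and since the RNA is from whole larvae, fewer cells of a type and less RNA per cell cannot be told apart. The values are the authors' log2 CPM, which were made so alike in distribution that the depth of each library is unknown. Levels were compared between libraries and never between genes, because no transcript lengths were at hand.

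Hox genes encode homeodomain transcription factors that tell cells where they lie along the body. Within a cluster, the genes at one end (low paralog numbers) are used in the hindbrain and pharyngeal arches, and those toward the other end (high numbers) in the trunk, the tail and the distal fins. In larvae they remain active in hindbrain and spinal neurons, and the extra genome duplication of teleosts left many of them as a and b copies. Retinoic acid activates anterior Hox genes, Polycomb and trithorax complexes hold the clusters silent or open, and the TALE homeodomain proteins of the Meis, Pbx and Pknox families bind DNA beside Hox proteins.

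*traf3ip1*, the mutated gene, served as a check of the labels. It had log2 values of 3.03, 2.63, 2.81 and 2.78 in controls 1 to 4 and 2.36, 1.88, 1.61 and 2.09 in mutants 1 to 4, and the groups did not overlap. It lies on the same chromosome as the *hoxda* cluster, with 709 protein-coding genes between them in the RefSeq order.

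The first question was whether Hox expression differed between mutants and controls. No Hox gene passed the test, and the largest differences were a log2 difference of 0.36 (*hoxa11a*) upward and -0.47 (*hoxd13a*) downward. Both of these genes were low, with a mean log2 value under 1, and with a pseudocount of 1 their differences were 0.23 and -0.27. The test was limma's moderated linear model on the log2 values, two-sided and with no term for the clutch, and calls were made at an adjusted p below 0.1 (Benjamini-Hochberg over all 20409 genes). By this rule 0 of 49 Hox genes were called, against 1.52% of all genes (0.363% called higher in mutants and 1.16% called lower). At an unadjusted p under 0.05 there were 2 Hox genes, *hoxb6a* and *hoxd13a*, which is 4.08% of the members against 12% of all genes. The alternative limma fits without trend, with robust moderation, with vooma weights, with a pseudocount of 1, with housekeeping scaling and on genes of a mean log2 value of at least 1 also called 0. No member had groups that did not overlap, against 3.55% of all genes with every mutant above every control and 3.34% with every mutant below.

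The log2 differences of the 49 members lay on both sides of 0, with 26 positive (53.1%, against 57.6% of all genes) and 23 negative, and 35 of them were smaller than 0.15 in size. Their median was 0.00, and that of all genes was 0.03. The 95% interval of the difference, not adjusted for the number of genes, lay within -1 and 1 (a 2-fold change) for all 49 members and within -0.5 and 0.5 for 22 of them. At their extremes these intervals, from the fit with no clutch term, reached -0.93 and 0.96. The missing calls do not show that the levels were equal. In the fit with clutch as a block, given below, the interval lay within -0.5 and 0.5 for 40 of the 49 members. The median standard error of the members was 0.16 without the block and 0.10 with it. Standard errors given below are without the block unless it is named, and so include the spread between clutches.

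**Figure D1:**
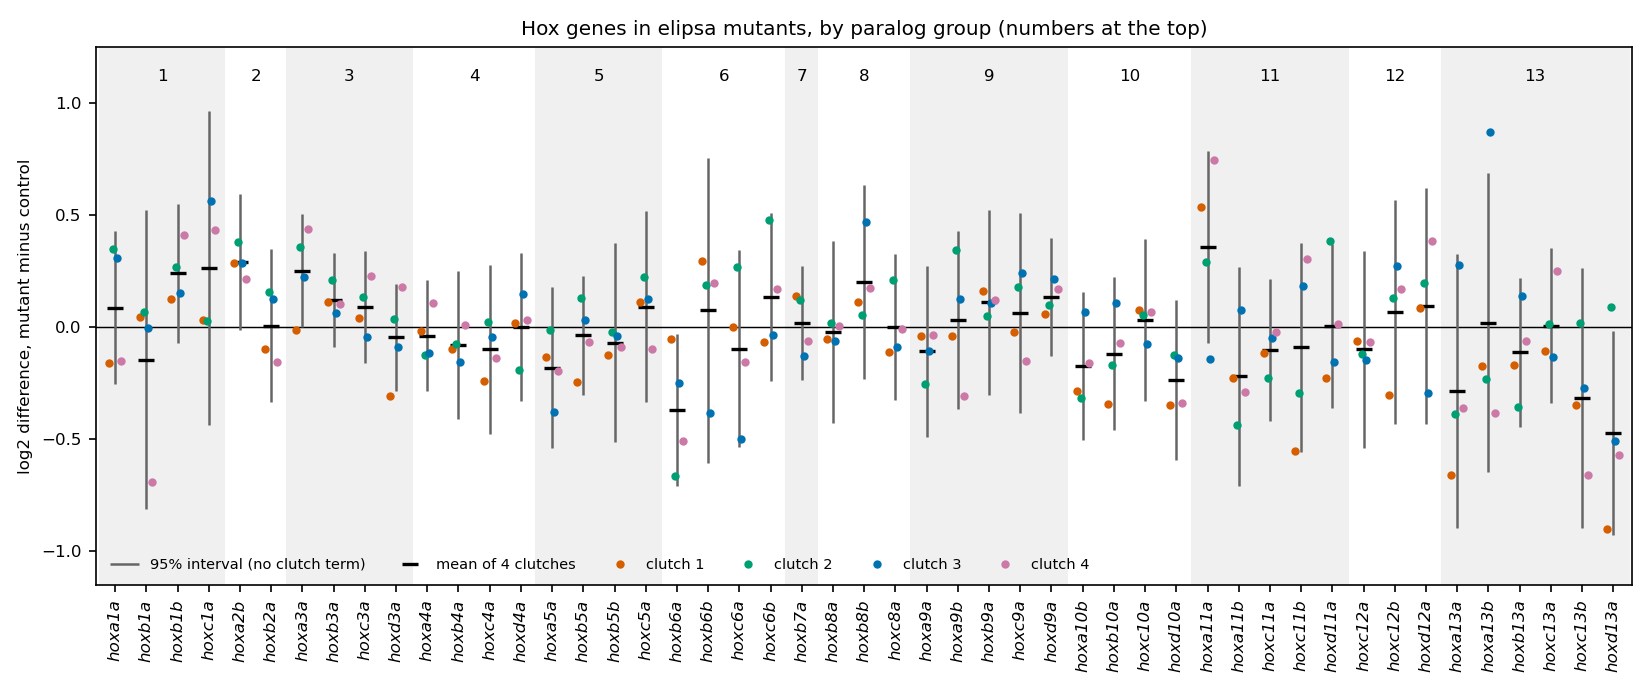
Log2 difference of mutant minus control (y axis) for the 49 Hox genes (x axis, ordered by paralog group 1 to 13), with the mean as a black dash, its 95% interval from limma without a clutch term as a grey line, and the 4 clutches as coloured points. The means run from -0.47 for *hoxd13a* to 0.36 for *hoxa11a*, and the 4 clutches of most members lie on both sides of 0.

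When the pairing of the tubes was taken into account, with clutch as a block, 2 of 49 Hox genes were called, both higher in mutants, against 6.48% of all genes called higher and 7.86% called lower. These were *hoxb1b*, which in zebrafish acts early in hindbrain patterning, and *hoxa2b*, which in zebrafish acts in the second pharyngeal arch. At an unadjusted p under 0.05 with the block there were 6 Hox genes (*hoxb1b*, *hoxa2b*, *hoxa3a*, *hoxb3a*, *hoxb6a* and *hoxd10a*), 12.2% of the members against 24.8% of all genes. With the block, the share of Hox genes called (4.08%) was below that of all genes (14.3%). The members share the same libraries, and whether this is a shortfall was not tested. Without the block, 49 genes were too few to tell 0 calls from the 1.52% of all genes.

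*hoxb1b* had log2 values of 4.76, 4.30, 4.36 and 4.18 in controls 1 to 4 and of 4.88, 4.57, 4.51 and 4.59 in mutants 1 to 4. The mutant was above the control of its own clutch in all 4 clutches, by 0.12, 0.27, 0.15 and 0.41, yet the control of clutch 1 was above the mutants of the other clutches. The log2 difference was 0.24 (standard error 0.14, limma adjusted p = 0.533). In the blocked fit its adjusted p was 0.0884 (standard error 0.08). The reads of *hoxb1b* may be shared with *hoxb5b* and *hoxb6b*, whose gene models it overlaps in RefSeq. Its a copy *hoxb1a*, which marks rhombomere 4 of the hindbrain, had a difference of -0.15 (standard error 0.30), with -0.69 in clutch 4 and from -0.00 to 0.07 in the others.

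*hoxa2b* had log2 values of 3.43, 3.11, 3.21 and 3.02 in controls 1 to 4 and of 3.72, 3.49, 3.50 and 3.24 in mutants 1 to 4. Each mutant was again above the control of its clutch, by 0.29, 0.38, 0.28 and 0.22, while the groups overlapped across clutches. The log2 difference was 0.29 (standard error 0.14, limma adjusted p = 0.438), and in the blocked fit its adjusted p was 0.0823. *hoxb2a*, the other member of paralog group 2, had a difference of 0.01, with 2 clutches on each side of 0. In fits with the block that left out each clutch in turn, the adjusted p of *hoxa2b* ran from 0.147 to 0.239. That of *hoxb1b* ran from 0.101 to 0.26, so both calls were lost in each of these fits. The differences there ran from 0.26 to 0.32 for *hoxa2b* and from 0.18 to 0.28 for *hoxb1b*. Fewer tubes were left in these fits, which called 6.32% to 14.1% of all genes, against 14.3% with every clutch.

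*hoxa3a*, a gene of paralog group 3, had log2 values of 4.43, 4.05, 4.15 and 3.92 in controls 1 to 4 and of 4.42, 4.41, 4.37 and 4.36 in mutants 1 to 4. The mutants differed little among themselves (4.39 ± 0.03, SD, n = 4), and control 1 stood apart from the other controls and slightly above its mutant. The log2 difference was 0.25 (standard error 0.11, limma adjusted p = 0.422), and blocking by clutch gave 0.124. Without control 1 it was called, with a difference of 0.35 and an adjusted p of 0.0918, and so it was with the block and without clutch 1 (adjusted p = 0.0604). Each of these fits called 1 Hox gene (2.04% of the members), against 5.35% of all genes in the first and 14.1% in the second. The gene models of *hoxa3a*, *hoxa4a* and *hoxa5a* overlap and the deposited table gives *hoxa3a* and *hoxa4a* the same Ensembl identifier. *hoxa4a* and *hoxa5a* had differences of -0.04 and -0.18.

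**Figure D2:**
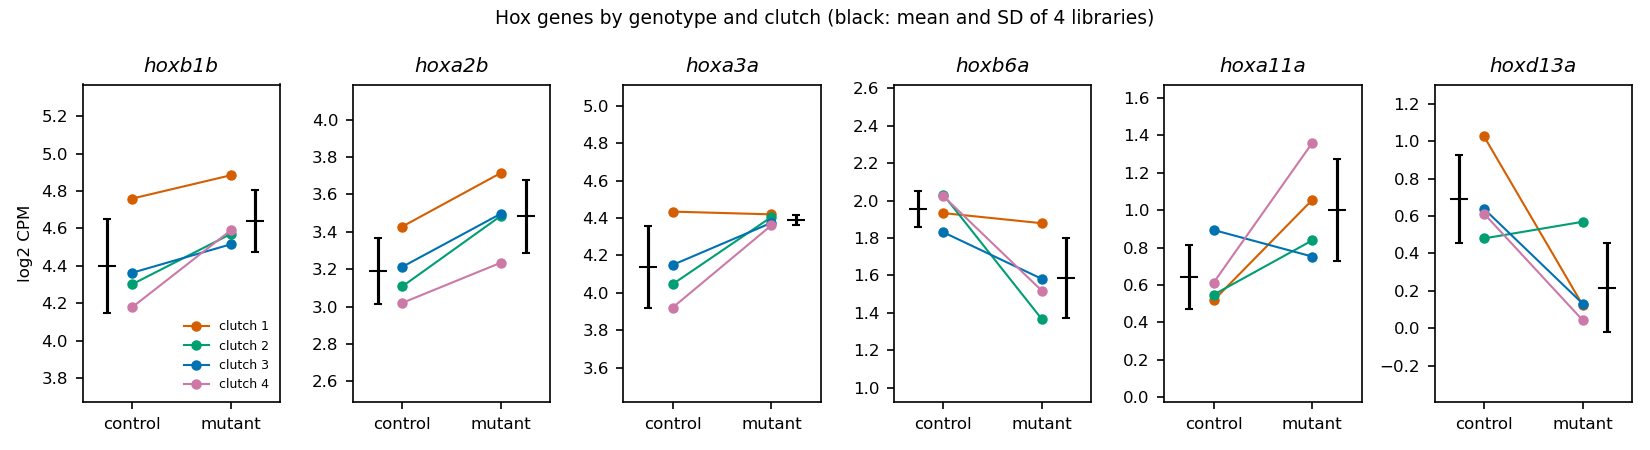
Log2 CPM (y axis) of 6 Hox genes in the control and the mutant of each clutch, joined by a coloured line per clutch, with the mean and SD of 4 libraries in black. Every y axis spans the same range of log2 units but starts at another level. The lines of *hoxb1b* and *hoxa2b* all go up, 3 of the 4 of *hoxd13a* go down, and clutch 1 is the highest clutch of *hoxb1b* and *hoxa2b* in both genotypes.

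By region, the median difference was slightly positive for the anterior genes and slightly negative for the posterior genes, without an even trend along the paralog groups. The median log2 difference was 0.05 over the 14 members of groups 1 to 4, -0.01 over the 12 of groups 5 to 8 and -0.09 over the 23 of groups 9 to 13. That of all genes was 0.03. Groups 1 to 3 had a median of 0.11 and group 4 of -0.06. The posterior groups 9 and 12 had 0.06 and 0.07, and groups 10, 11 and 13 had -0.15, -0.09 and -0.20. The sign of the region medians depended on single libraries. Without control 1 all regions had a positive median (0.13, 0.10 and 0.09). Groups 1 to 4 had medians of -0.02, -0.02 and -0.00 without control 3, control 4 and mutant 1, groups 5 to 8 had 0.05, 0.04 and 0.03 without mutant 3, mutant 4 and clutch 3, and groups 9 to 13 had 0.02 without clutch 1. Re-centring on housekeeping genes raised every difference by 0.05 and gave medians of 0.10, 0.04 and -0.04, with 30 members above 0. Across the 49 genes, the paralog number and the difference had a Spearman rho of -0.35 and a Pearson r of -0.37, which describes genes that share libraries and clusters and is not a test. In clutches 1 to 4 taken alone, rho was -0.41, -0.37, -0.18 and -0.20.

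In the anterior groups 1 to 4, 9 of 14 members had a positive difference. The others were *hoxb1a* and *hoxd3a*, at -0.15 and -0.04, and *hoxa4a*, *hoxb4a* and *hoxc4a* of paralog group 4. *hoxc1a* had a difference of 0.26 and *hoxb3a* of 0.12, and both were higher in the mutants of all 4 clutches without passing the test in either fit. In paralog group 4, the differences ran from -0.10 to 0.00. *hoxc4a*, which had the smallest p of that group, had log2 values of 4.56, 3.94, 4.30 and 3.95 in controls 1 to 4 and of 4.32, 3.96, 4.25 and 3.82 in mutants 1 to 4. Its groups overlapped throughout, and the libraries of clutches 1 and 3 were the high ones in both genotypes (difference -0.10, standard error 0.17). The gene model of *hoxc4a* overlaps that of *hoxc3a* in RefSeq, so reads may be shared.

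In the trunk groups 5 to 8, 6 of 12 members had a positive difference. *hoxb6a*, whose gene model overlaps that of *hoxb3a* in RefSeq so that reads may be shared, had the smallest p of all members. Its log2 values were 1.93, 2.03, 1.83 and 2.02 in controls 1 to 4 and 1.88, 1.37, 1.58 and 1.52 in mutants 1 to 4. Mutant 1 lay within the range of the controls and the other mutants lay below it, and in each clutch the mutant was lower than its control. The log2 difference was -0.37 (standard error 0.15, limma adjusted p = 0.383, and 0.179 with the block). Its b copy *hoxb6b* had a difference of 0.07.

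*hoxa5a*, whose mouse counterpart acts in the lung and the cervical vertebrae, had log2 values of 3.05, 2.93, 2.81 and 2.66 in controls 1 to 4 and of 2.92, 2.92, 2.43 and 2.46 in mutants 1 to 4. All 4 clutches had the mutant lower, by 0.01 in clutch 2 and by 0.38 in clutch 3 at most (difference -0.18, standard error 0.16). *hoxb7a*, the only member of paralog group 7, had 2.89, 2.94, 2.87 and 2.91 in controls and 3.03, 3.06, 2.74 and 2.84 in mutants. It was nearly level in the controls, and the mutants lay on both sides of them (difference 0.02, standard error 0.11, 95% interval -0.24 to 0.27). *hoxb8b* had 2.84, 2.32, 2.18 and 2.20 in controls and 2.96, 2.37, 2.65 and 2.38 in mutants. Each mutant was above the control of its clutch, and clutch 1 was again the high one in both genotypes (difference 0.20, standard error 0.19).

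Among the posterior groups 9 to 13, 11 of 23 members had a positive difference. *hoxd9a* and *hoxd10a*, neighbours in the *hoxda* cluster with mouse counterparts that act in limbs and lumbar motor neurons, lay on opposite sides of 0. *hoxd9a* had log2 values of 3.78, 3.69, 3.64 and 3.39 in controls 1 to 4 and of 3.84, 3.79, 3.86 and 3.56 in mutants 1 to 4, with the mutant higher in every clutch (difference 0.14, standard error 0.12). *hoxd10a* had 4.02, 3.64, 3.55 and 3.44 in controls and 3.67, 3.51, 3.41 and 3.10 in mutants, with the mutant lower in every clutch (difference -0.24, standard error 0.16, limma adjusted p = 0.608, and 0.144 with the block). Both genes had overlapping groups.

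*hoxa11a*, whose mouse counterpart patterns the middle segment of the limb, had log2 values of 0.52, 0.55, 0.89 and 0.61 in controls 1 to 4 and of 1.06, 0.84, 0.75 and 1.36 in mutants 1 to 4. Its mutants were higher in 3 clutches and lower in clutch 3 (difference 0.36, standard error 0.19, limma adjusted p = 0.502). Its b copy *hoxa11b* had a difference of -0.22. *hoxc12a* had 4.05, 3.77, 3.69 and 3.28 in controls and 3.99, 3.65, 3.54 and 3.22 in mutants. Each mutant was slightly lower than its control (difference -0.10, standard error 0.20, and 0.08 with the block), while the clutches lay further apart than the genotypes.

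*hoxd13a*, at the posterior end of its cluster and known in zebrafish for its role in the distal fin, had log2 values of 1.03, 0.48, 0.64 and 0.61 in controls 1 to 4 and of 0.12, 0.57, 0.13 and 0.04 in mutants 1 to 4. Mutant 2 lay among the controls and the other mutants lay below all of them. The log2 difference was -0.47 (standard error 0.20, 95% interval -0.93 to -0.02, limma adjusted p = 0.403, and 0.221 with the block). The other members of paralog group 13, *hoxa13a*, *hoxa13b*, *hoxb13a*, *hoxc13a* and *hoxc13b*, had differences of -0.28, 0.02, -0.11, 0.01 and -0.32, and none was lower in all 4 clutches.

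By cluster, the median difference was between -0.04 (*hoxaa* and *hoxba*) and 0.14 (*hoxbb*), and that of *hoxda*, on the chromosome of *traf3ip1*, was 0.00 over 7 members, as it was over the 42 members outside it. Of the 11 pairs of a and b copies, 2 (*hoxb5a* with *hoxb5b* and *hoxc11a* with *hoxc11b*) had differences of the same sign. Over all members, 7 were higher in the mutants of all 4 clutches (*hoxb1b*, *hoxc1a*, *hoxa2b*, *hoxb3a*, *hoxb8b*, *hoxb9a* and *hoxd9a*) and 7 were lower in all 4 (*hoxa5a*, *hoxb5b*, *hoxb6a*, *hoxa9a*, *hoxd10a*, *hoxc11a* and *hoxc12a*). Each count is 14.3% of the members, against 18% of all genes higher in all 4 clutches and 14.5% lower. The gene models of 18 members overlap that of another member, and among the other 31 members 0 were called without the block and 1 with it (*hoxa2b*).

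**Figure D3:**
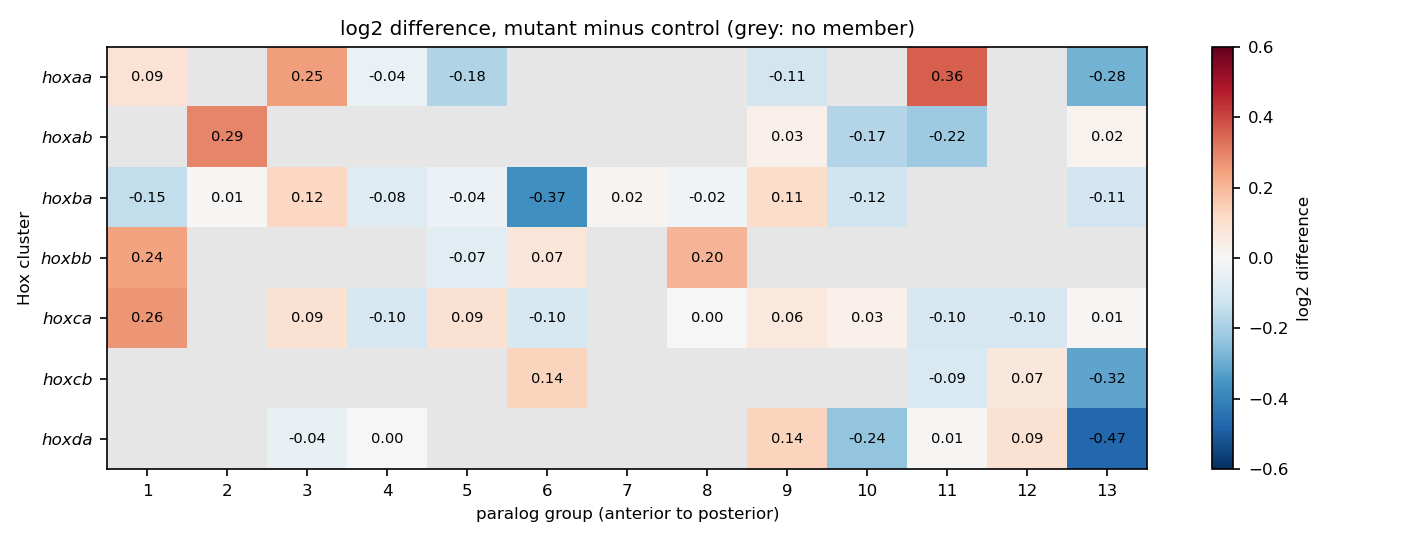
Log2 difference of mutant minus control for each Hox gene, by cluster (rows) and paralog group (columns, anterior to posterior), printed in each cell and shown by colour from -0.6 (blue) to 0.6 (red), with grey where there is no member. The clusters show no common direction, and the cells furthest from 0 are *hoxd13a* at -0.47, *hoxb6a* at -0.37 and *hoxa11a* at 0.36.

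The second question was whether Hox expression differed between the clutches. RNA of each clutch was isolated on its own, so clutch and isolation cannot be told apart. It did for 18 of 49 members, and in each of the 18 clutch 1 had the highest mean. The test was limma's F test over the 4 clutches with genotype as a term, adjusted over all genes, and it called 36.7% of the members against 26% of all genes. Among the 31 members whose gene models overlap no other member, it called 9, a share close to the 26% of all genes. In 20 of these 31, clutch 1 held the highest control and the highest mutant, against 21.1% of all genes. The part of shared reads in the clutch calls was not tested. Genes called with clutch 1 as the highest clutch made up 9.95% of all genes, and those with clutch 1 as the lowest 9.63%. Without clutch 1, 1 Hox gene was called (*hoxb5b*), 2.04% of the members against 5.31% of all genes, and without clutch 4 there were 11 (22.4% of the members against 15.9% of all genes).

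The difference between clutch 1 and the others appeared in controls and mutants alike. In 35 of 49 members (71.4%) clutch 1 held the highest control and the highest mutant, against 21.1% of all genes, and in 0 members did it hold the lowest of both, against 14.9% of all genes. That clutch 1 was singled out follows from these values, so its counts are a description. The log2 value in clutch 1 minus the mean of clutches 2 to 4 had a median over the members of 0.46 in controls and 0.32 in mutants, against 0.05 and 0.03 over all genes. The control of clutch 1 was above the mean of the other controls for 45 members (57.5% of all genes), and the mutant of clutch 1 above the mean of the other mutants for 46 (54.4% of all genes).

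**Figure D4:**
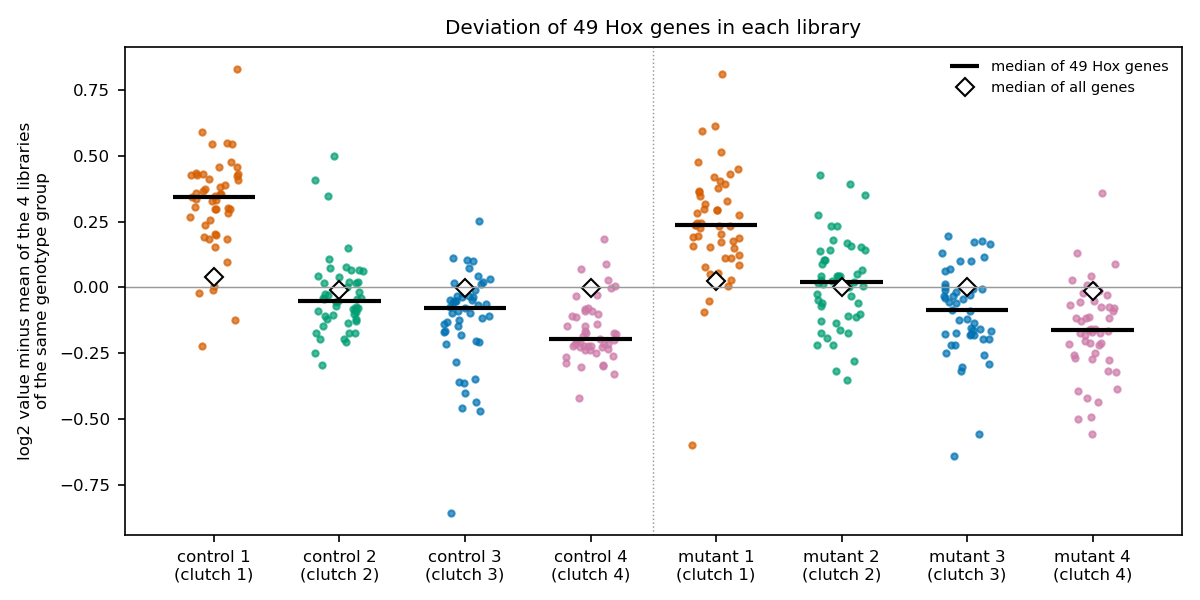
Log2 value of each of the 49 Hox genes minus its mean over the 4 libraries of the same genotype (y axis) in each library (x axis), coloured by clutch, with the median of the Hox genes as a bar and that of all genes as a diamond. The Hox medians are 0.35 in control 1 and 0.24 in mutant 1 and lie between -0.20 and 0.02 in the other libraries, while those of all genes lie between -0.01 and 0.04.

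The members named next were chosen after their values were seen, as those with the smallest p of the clutch test. *hoxb5b*, which in zebrafish acts downstream of retinoic acid to limit the number of heart cells, had log2 values of 5.28, 4.95, 4.50 and 4.65 in controls 1 to 4 and of 5.16, 4.93, 4.46 and 4.56 in mutants 1 to 4. The control and the mutant of a clutch were within 0.13 of each other, and clutches 1 and 2 lay above clutches 3 and 4 (F = 28.8, limma adjusted p = 0.00338). The gene model of *hoxb5b* overlaps that of *hoxb1b* in RefSeq, so reads may be shared. *hoxb9a* had clutch means of 5.23, 4.71, 4.61 and 4.56 (adjusted p = 0.00539), and *hoxb8a*, its neighbour, of 5.19, 4.77, 4.63 and 4.49 (adjusted p = 0.00579). In both genes clutch 1 stood above the rest by 0.60 and 0.56. *hoxc12a* had clutch means of 4.02, 3.71, 3.62 and 3.25 (adjusted p = 0.0141), with clutch 1 above and clutch 4 below the other clutches.

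The higher values in clutch 1 appeared in each of the anterior, trunk and posterior regions. The median of clutch 1 minus the mean of the others was 0.29 over groups 1 to 4, 0.44 over groups 5 to 8 and 0.42 over groups 9 to 13, and the clutch test called 42.9%, 50% and 26.1% of their members (6 in each), the last close to the 26% of all genes. No member of paralog groups 7, 11 and 13 was called. By cluster, 4 of 4 members were called in *hoxbb*, 7 of 11 in *hoxca*, 5 of 11 in *hoxba* and 2 of 7 in *hoxda*, and none of 7, 5 and 4 in *hoxaa*, *hoxab* and *hoxcb*. The members in which clutch 1 did not have the highest mean were *hoxc6a*, *hoxb7a*, *hoxa11a*, *hoxa13a* and *hoxb13a*. In *hoxa11a* and *hoxb13a* the difference of clutch 1 from the mean of the others was -0.05 and -0.03, and it was most negative in *hoxa13a*. *hoxa13a* had log2 values of 0.45, 1.18, 0.31 and 0.76 in controls and -0.21, 0.79, 0.59 and 0.40 in mutants, so that clutch 1 was 0.55 below the mean of the others and control 3 lower still than control 1.

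**Figure D5:**
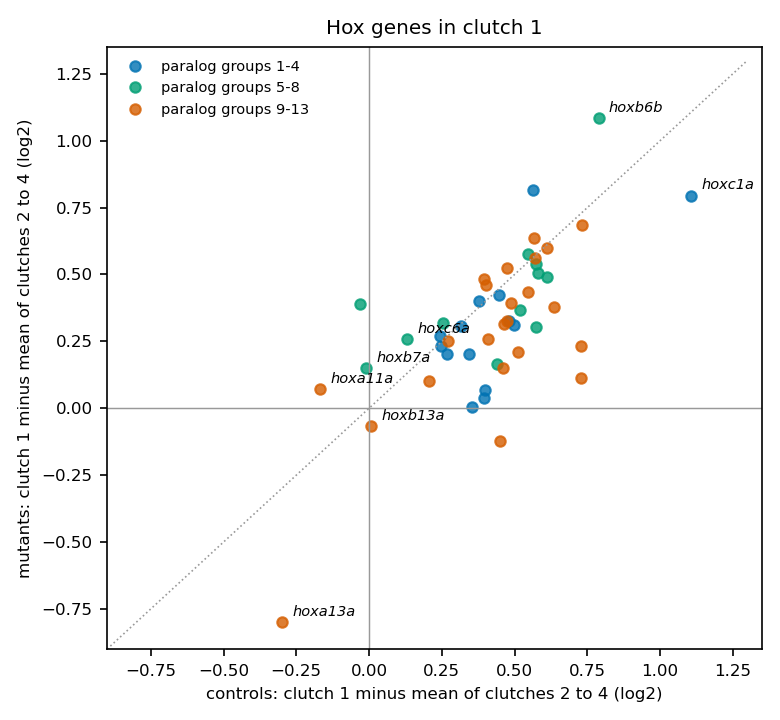
Log2 value in clutch 1 minus the mean of clutches 2 to 4 in controls (x axis) and in mutants (y axis) for the 49 Hox genes, coloured by region of the paralog groups, with equal values on the dotted line. Most members lie above 0 on both axes, *hoxb6b* and *hoxc1a* furthest out, and *hoxa13a* lies below 0 on both.

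Some other sets of genes were also high in clutch 1, so its higher values were not particular to Hox genes. Over all genes, clutch 1 held the highest control and the highest mutant for 21.1%, and the clutch test called 26%. Clutch 1 held the highest control and the highest mutant of 61.5% of 13 ParaHox, *evx*, *mnx* and *gbx* genes. This share was 52.9% of 17 pectoral fin genes and 51.7% of 29 Polycomb and trithorax genes. It was 32.1% of 28 genes that flank Hox clusters and 30.4% of 23 retinoic acid genes. Clutch 1 held the lowest of both for 3 of the 13 genes of the first list, *cdx1a*, *cdx1b* and *pdx1*. The same held for 5 of the 28 flanking genes, 2 of the 17 pectoral fin genes and 0 of the other lists named here, against 14.9% of all genes. The clutch test called 53.8% of the first list, 42.9% of the flanking genes and 41.2% of the pectoral fin genes. It called 24.1% of the Polycomb and trithorax genes and 17.4% of the retinoic acid genes, both below the 26% of all genes. In the order first named, the median of clutch 1 minus the others was 0.47, 0.34, 0.19, 0.11 and 0.06 over these lists, against 0.04 over all genes. The libraries of clutch 1 had less RNA of the exocrine pancreas: the summed level of 7 digestive enzyme genes (*prss1*, *cpa5*, *ela2l*, *ela3l*, *ctrb1*, *cel.1* and *cpb1*) was 9.07 on the log2 scale in clutch 1 and 11.38, 11.32 and 11.53 in clutches 2 to 4, and all 7 were lowest in clutch 1 in both genotypes. Clutch 1 minus the others had a median of 0.43 over 6 genes of neural progenitors, 0.39 over 6 of cartilage and notochord, 0.05 over 6 pan-neuronal genes, 0.10 over 7 of skeletal muscle and -0.60 over 6 of the pronephros. The part of these tissues in the Hox values of clutch 1 was not tested.

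The label of whole larvae was checked against muscle and neuronal markers, which were present throughout: the lowest mean log2 value was 10.8 among 7 muscle genes and 6.48 among 6 pan-neuronal genes. Between genotypes, the summed level of 6 photoreceptor genes ran from 11.8 to 12.98 in controls and from 9.88 to 10.1 in mutants, with 6 of 6 called lower, while the pan-neuronal genes had a median difference of 0.00. The 11 genes found of spinal motor neurons had a summed level of 8.55 to 8.72 in controls and of 8.51 to 8.73 in mutants. Of epidermis (5 genes), cartilage and notochord (6), pronephros (6), neural progenitors (6), skeletal muscle (7) and the pan-neuronal list (6), none was called without the block. With the block, 2 epidermis genes were higher (40%) and 2 of cartilage and notochord lower (33.3%). Muscle and pronephros had 1 lower gene each (14.3% and 16.7%), and the pan-neuronal and progenitor lists 1 higher gene each (16.7%). Over all genes the block called 6.48% higher and 7.86% lower. Of 4 genes of neurons that contact the cerebrospinal fluid, *pkd2l1* was lower in mutants, with 1.42 ± 0.44 (SD, n = 4) against 2.88 ± 0.21 in controls. The part of these cells in the small Hox differences between genotypes was not tested.

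The genes that work with or on the Hox clusters were mostly not called either. Their counts with the block are read against 6.48% of all genes called higher and 7.86% called lower. Of 14 genes of Hox cofactors, 0 were called without the block, with a median difference of 0.13. In the blocked fit 3 of these were higher, *pbx4*, *pbx3b* and *pknox1.2*, with differences of 0.26, 0.18 and 0.24 (limma adjusted p = 0.0296, 0.0703 and 0.0526). These are 21.4% of the list. In the clutch test 9 of the 14 were called (64.3%, against 26% of all genes). Clutch 1 held the highest control and the highest mutant of 9 of the 14 (64.3%, against 21.1% of all genes), with a median of 0.25 above the other clutches. *meis2b*, named after its values were seen, had log2 values of 7.52, 7.16, 7.04 and 6.97 in controls 1 to 4 and of 7.50, 7.29, 7.20 and 7.15 in mutants 1 to 4, with clutch 1 the highest in both genotypes as in most Hox genes.

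Of 23 genes of retinoic acid supply, clearance and receptors, 0 were called, and with the block the binding protein genes *crabp1b*, *crabp2a* and *crabp2b* were higher (13.04% of the list), by 0.37, 0.26 and 0.31 (limma adjusted p = 0.0375, 0.0301 and 0.055). *aldh1a2*, whose enzyme makes retinoic acid, and the clearing *cyp26* genes were not among them. Of 29 Polycomb and trithorax genes 0 were called, and with the block *cbx2*, *phc2a*, *phc1* and *bmi1a*, all of Polycomb complexes, were higher (13.8% of the list), by 0.31, 0.22, 0.27 and 0.27 (limma adjusted p = 0.0394, 0.0415, 0.07 and 0.0729). Of 17 pectoral fin genes 0 were called, and with the block *pitx1* and the actinodin gene *and2* were lower (11.8% of the list), with differences of -0.46 and -0.23. Of the 11 motor neuron genes 0 were called, and with the block the cholinergic genes *chata*, *slc18a3a* and *slc5a7a* were lower (27.3% of the list, differences -0.37, -0.29 and -0.36) and *isl1* was higher (0.20). Of 28 genes that flank Hox clusters in vertebrates, 0 were called, and with the block *atf2* was higher (3.57% of the list), by 0.48.

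Calls without the block were found in 3 of the lists. Of 12 regulators of hindbrain segments, *hnf1bb* was higher, a paralog of *hnf1ba*, which in zebrafish patterns the hindbrain and the pronephros. Its log2 values were 3.00, 2.65, 3.18 and 3.27 in controls 1 to 4 and 3.57, 3.74, 3.89 and 4.08 in mutants 1 to 4, with no overlap. The difference was 0.79 (standard error 0.16), with a limma adjusted p = 0.0614 that rose to as much as 0.189, past the threshold, when control 2, control 3, mutant 2, mutant 3 or mutant 4 was left out. With the block *irx7* and *sall4* were higher too, by 0.57 and 0.34.

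Of 13 ParaHox, *evx*, *mnx* and *gbx* genes, *pdx1* was lower, a ParaHox gene of pancreas and gut. Its log2 values were 2.53, 3.10, 3.12 and 2.86 in controls 1 to 4 and 1.68, 1.95, 1.72 and 2.07 in mutants 1 to 4, with no overlap (difference -1.05, standard error 0.17, limma adjusted p = 0.02), and leaving out any one of the 8 libraries kept the call (adjusted p of up to 0.0854). The intestinal ParaHox genes *cdx1a* and *cdx1b* had differences of -1.04 and -0.53 and were lower with the block (limma adjusted p = 0.00449 and 0.023), while *evx1* and *evx2*, which flank Hox clusters, had differences of -0.07 and 0.18 and were not called in either fit. The digestive enzyme genes of the exocrine pancreas had a median difference of -0.88, with 7 of 7 lower with the block. Their part in the differences of *pdx1*, *cdx1a* and *cdx1b* was not tested.

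Among the hedgehog genes, the calls included *hhip* and *gli1*, targets of the pathway, which were lower, and *gli2a*, which was higher. *hhip* had log2 values of 6.26, 6.07, 6.15 and 6.14 in controls 1 to 4 and of 5.32, 4.91, 5.07 and 5.24 in mutants 1 to 4, far apart (difference -1.02, limma adjusted p = 0.00148). *gli1* had a difference of -0.81 (limma adjusted p = 0.0101), and the calls of *hhip* and *gli1* held when each library was left out in turn. The call of *gli2a* (difference 0.40) was lost without each library but control 1 (adjusted p of up to 0.263), with no trend (adjusted p = 0.153) and with housekeeping scaling (adjusted p = 0.239). With the block *ptch1* was lower as well and *gli2b* higher. The 5′ *hoxd* genes, which respond to hedgehog signals in the limb buds of the mouse, were the members *hoxd9a* to *hoxd13a*, and their differences were 0.14, -0.24, 0.01, 0.09 and -0.47.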

How the data were processed

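Per the labels and the methods of the paper, the authors cleaned the reads (SOAPnuke), mapped them by strand to genome and transcripts (HISAT2, Bowtie2), counted genes with RSEM, kept genes with a mean above 1 CPM, and deposited log2 values normalized with voom of limma. The submitters' processing notes name the build GRCz11. Summed on the linear scale a library holds 997999 to 998008, with nearly identical sorted values, so depth is unknown. A deposited table of the authors' comparison gave only the gene symbols used here; its fold changes, p-values and scores are the authors' own and were not used.

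The genotypes were set against each other in R 4.3.3 with limma 3.58.1 (moderation with trend, two-sided, Benjamini-Hochberg over 20409 genes, called at an adjusted p under 0.1), without a clutch term because the paper names none. Clutches were compared by an F test with genotype as a term. A clutch block was one alternative: the labels number the clutches and the paper states joint processing. Libraries of clutches 1 to 4 also deviated from their group means together (r = 0.64, 0.325, 0.334 and 0.458 over all genes). Over the Hox members r was 0.677, 0.339, 0.134 and 0.242, and control 3 had a higher r, 0.213, with the mutant of another clutch. Other alternatives were no trend, robust moderation, vooma weights, only genes with a mean log2 of 1 or more, a pseudocount of 1, re-centring on 28 housekeeping genes, an adjusted p under 0.05, and leaving out each library or clutch. The block without each clutch was added after seeing the data. Standard errors are moderated, SDs are over 4 libraries, and the fits were tested on simulated data. The RefSeq table, matched to 19636 identifiers, is of another build and served for names and gene order only. Members with full values are those called in either fit and the member with the smallest p in each paralog group. Members and lists were chosen with earlier results of these data known. Not every called gene of the lists is reported here. No sequences were used here. Figures were drawn with matplotlib 3.10.9.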

Additional observations from a re-analysis of the deposited data

Results flagged for a closer look

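In groups of 4 libraries, a library was set aside for a closer look when its gap to the nearest other library took up more of the group's range than Dixon's 95% critical value allows, which chance gives in about 1 of 20 groups. Of 98 groups (49 Hox genes in controls and in mutants), 9 met this, and in 7 of them the library was of clutch 1 and was the highest. The groups share the same libraries and the rate over all genes was not counted, so whether 9 is unusual was not tested. In controls, clutch 1 was high for *hoxb5a* (5.47 against 5.00 to 5.08 in the other controls), *hoxb6b* (2.80 against 1.97 to 2.03), *hoxa9b* (3.97 against 3.46 to 3.52) and *hoxc13b* (1.88 against 1.13 to 1.19). In mutants, clutch 1 was high for *hoxc1a* (1.56 against 0.68 to 0.81), *hoxb9a* (5.31 against 4.62 to 4.73) and *hoxa11b* (2.15 against 1.55 to 1.65). The others were *hoxc6a*, low in control 4 (1.94 against 2.27 to 2.30), and *hoxd13a*, high in mutant 2 (0.57 against 0.04 to 0.13).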

How the results depend on the processing

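With clutch as a replicate block, 2927 genes (14.3%) were called in place of 311 (1.52%), with 45.2% of them higher in place of 23.8%. The block called 2 Hox genes (4.08%) in place of 0. It changed no other call of the 13 Hox genes given in full. Leaving out a library or a clutch gave 80 to 1091 genes (0.392% to 5.35%) and 0 to 1 Hox genes (*hoxa3a* without control 1, 2.04% of the members). The block with clutches 1 to 4 left out in turn gave 2879, 1584, 1289 and 1466 genes (14.1%, 7.76%, 6.32% and 7.18%) and 0 to 1 Hox genes. With a library or a clutch left out and no block, the median differences ran from -0.0178 to 0.126 for paralog groups 1 to 4. They ran from -0.12 to 0.10 for groups 5 to 8 and from -0.137 to 0.0921 for groups 9 to 13. At an adjusted p under 0.05, 206 genes (1.01%) and 0 Hox genes were called between genotypes. Between clutches this threshold gave 3178 genes (15.6%) and 10 Hox genes (20.4% of the members). The clutch test called 2737 genes (13.4%) and 16 Hox genes (32.7%) with no trend. At a mean log2 of 1 or more it called 31.0% of genes and 22 of 44 Hox genes (50%). With a clutch left out it called 1083 to 5158 genes (5.31% to 25.3%) and 1 to 23 Hox genes (2.04% to 46.9%). Housekeeping scaling moved the median difference by 0.05. Depth is unknown, and 4 libraries a group limit what can be detected.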
